A study of Homo sapiens with 4 samples.

Results

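ICAM1, ICAM2, ICAM3, VCAM1, SELE, CD44, CD47, CD274, CD58 and ALCAM encode surface molecules through which a cell binds leukocytes or passes a signal to them. The 10 genes were taken by symbol from a fixed list, out of 24424 symbols counted in BEAS-2B cells, an established virus-transformed line of human bronchial epithelial cells labelled as wild type. There was 1 RNA-seq library per condition and 4 in all. Control cells received nothing, LPS cells received lipopolysaccharide for 2 hr, and the cells of the WT PDZ+LPS and mut PDZ+LPS libraries were given the wild-type (WT) or the mutant (mut) form of a PDZ peptide 24 hr ahead of the same 2 hr of LPS. The peptide was a cell-permeable stretch of the first PDZ domain of the tight junction protein ZO-1, and in the mutant form a pair of neighbouring glycines was replaced by alanines. No library of a peptide without LPS was analysed here, so each peptide library was set beside LPS and beside Control. With 1 library per condition no test between conditions was possible, and every interval given is a 95% exact binomial interval (Clopper-Pearson) of the ratio of 2 counts. Such intervals compare libraries and cover counting error at most, because the spread between cultures was not measured. Without molecular identifiers several reads may stem from 1 molecule, so the intervals may be too narrow even for counting error.

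Leukocytes leave the blood and hold on to tissue through integrins that grip immunoglobulin-type ligands on other cells. ICAM1, ICAM2 and ICAM3 are ligands of the leukocyte integrin LFA-1, VCAM1 is the ligand of the integrin VLA-4, whose alpha subunit is ITGA4, and SELE is the E-selectin on which leukocytes first roll. ALCAM binds CD6 on T cells, CD44 binds hyaluronan, CD58 engages CD2 on T cells, CD47 gives macrophages a signal through SIRPA that restrains engulfment, and CD274, also called PD-L1, restrains T cells through PDCD1. LPS is sensed by TLR4 with the help of CD14, and the signal runs to NF-κB, a transcription factor for which ICAM1, VCAM1 and SELE are textbook targets.

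The libraries held 19682929 to 25155647 counts, and geometric size factors ran from 0.851 in mut PDZ+LPS to 1.15 in Control. All 9 epithelial markers had at least 16 normalized counts in every library, and their summed level was 75696 to 80645 in 3 libraries and 107450 in mut PDZ+LPS. The leukocyte markers PTPRC, MS4A1, FCGR3A and HLA-DRA were at 0 in all 4 libraries, and the summed level of the 11 leukocyte markers, 605 to 792, came almost entirely from CD14 and ITGB2. Of 9 endothelial markers only KDR had at least 16 normalized counts, TIE1 was at 0 throughout, and the sum was 32.9 to 40.4. Of 8 fibroblast markers 3 had that level, COL3A1 and LUM were at 0, and the sum was 1913 to 2118. The 3 were THY1 with 1365 to 1726 counts, COL1A1 with 331 to 449 and PDGFRB with 67 to 129. Fold changes of mut PDZ+LPS against LPS tracked transcript length, with a rank correlation (Spearman) of -0.605 over 12118 genes. For WT PDZ+LPS/LPS it was 0.0750, and the genes are no replicates of each other. Fold changes and medians of the 10 genes that involve mut PDZ+LPS are therefore given also after removal of a smooth trend over transcript length and GC content. The median log2 fold change of the 9 epithelial markers in mut PDZ+LPS/LPS was 0.28 as counted and 0.030 after this removal. Whether their higher sum goes with the trend was not tested.

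The stretches of DNA just before the transcription starts of the LPS-responsive ligands are shown because sequences of the NF-κB type lie in them, with that of SELE beside them as a gene that holds such sequences and had almost no counts. Each run is the 250 bases before the start given by RefSeq on GRCh38.p14, 5′ to 3′ on the gene's own strand, and capitals mark matches to the NF-κB consensus or to its short form GGNNNTTCC on either strand. ICAM1 lies at chr19:10270870-10271119 (plus strand), VCAM1 at chr1:100719492-100719741 (plus), CD274 at chr9:5450292-5450541 (plus) and SELE at chr1:169734080-169734329 (minus).
ICAM1: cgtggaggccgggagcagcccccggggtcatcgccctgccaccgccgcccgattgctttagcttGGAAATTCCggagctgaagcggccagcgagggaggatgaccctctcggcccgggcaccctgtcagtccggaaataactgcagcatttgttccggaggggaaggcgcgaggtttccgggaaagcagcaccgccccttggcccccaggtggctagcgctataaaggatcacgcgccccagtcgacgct
VCAM1: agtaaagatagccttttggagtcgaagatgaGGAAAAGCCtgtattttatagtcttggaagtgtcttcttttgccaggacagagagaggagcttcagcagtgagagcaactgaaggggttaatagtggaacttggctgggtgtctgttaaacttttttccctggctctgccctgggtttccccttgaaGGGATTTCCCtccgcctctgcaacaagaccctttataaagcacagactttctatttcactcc
CD274: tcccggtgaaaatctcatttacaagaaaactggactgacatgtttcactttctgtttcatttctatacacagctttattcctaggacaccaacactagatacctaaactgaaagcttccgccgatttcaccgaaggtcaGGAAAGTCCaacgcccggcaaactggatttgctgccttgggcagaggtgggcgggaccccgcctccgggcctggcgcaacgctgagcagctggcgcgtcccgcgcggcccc
SELE: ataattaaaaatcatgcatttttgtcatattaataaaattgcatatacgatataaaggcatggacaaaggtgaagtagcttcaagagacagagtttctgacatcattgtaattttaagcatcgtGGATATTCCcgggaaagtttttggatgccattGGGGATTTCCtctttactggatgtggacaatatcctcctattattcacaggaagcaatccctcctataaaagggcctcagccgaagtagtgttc
The count tables carried no coordinates and were made on hg19, so these windows give the position of the start only and no measurement was made in them.

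Positions are counted backwards from the start, with -1 the last base printed. In ICAM1 the short form was at -186 to -178 and matches on both strands, and the window also held the GAS sequence TTCNNNGAA at -75 to -67 and TATAAA at -30 to -25. VCAM1 held the consensus at -62 to -53 on both strands, which overlaps a short form at -62 to -54, a further short form at -219 to -211, and TATAAA at -29 to -24, with reverse-strand matches to it at -205 to -200 and -31 to -26. CD274 held a short form at -111 to -103 and a GAS sequence at -125 to -117 with no TATAAA. SELE held the consensus at -94 to -85 with an overlapping short form at -93 to -85, a further short form at -126 to -118 and TATAAA at -200 to -195 and -30 to -25. CD58 held a short form at -81 to -73, and the windows of CD44, CD47, ALCAM and ICAM3 held none of the 5 sequences searched, of which the fifth was AP-1, TGANTCA. Among 35116 windows of the same length the consensus was present in 5.21%, the short form in 17.1%, TGANTCA in 6.57%, TTCNNNGAA in 6.57% and TATAAA in 10.7%. A match is a string of letters and not a measured site, and the lack of one says only that these letters are not in the window. ICAM2 had no entry in the promoter table.

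ICAM1 was the member with the most reads after LPS. It had 3256 counts in Control, 36482 in LPS, 27042 with the WT peptide and 24292 with the mut peptide, or 2834, 34318, 27307 and 28543 after scaling by the size factors (normalized counts). The Control library was low and the 3 LPS-treated libraries were high, with LPS the highest. In LPS/Control the ratio was 12.1-fold (11.7 to 12.6). Per kb of its longest transcript, ICAM1 moved from place 1766 among 12118 genes in Control to place 93 in LPS, 119 with the WT peptide and 140 with the mut peptide. Less of this RNA per cell and fewer cells that make it cannot be told apart in bulk libraries.

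The other ICAM genes of the list, whose products are typical of endothelium and leukocytes, stayed low. ICAM3 had 133 counts in Control, 98 in LPS, 91 with the WT peptide and 85 with the mut peptide. Its log2 fold change in LPS/Control was -0.33 (-0.72 to 0.059), an interval that includes 0. ICAM2 had 3 counts in Control and 0 in the LPS-treated libraries, and no fold is given because both sides are at or under 3 counts, the limit that a count of 0 allows. Across ICAM1 to ICAM5 the ICAM1 share of the summed level per kb was 89.7% in Control and 98.9% in LPS, 98.6% with the WT peptide and 98.3% with the mut peptide. The ICAM family RNA of these cells was thus chiefly ICAM1 before LPS and more so after it.

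VCAM1, which captures monocytes and lymphocytes through ITGA4, was close to silent in Control and present in every LPS-treated library. It had 1 count in Control, 172 in LPS, 106 with the WT peptide and 147 with the mut peptide, or 0.870, 162, 107 and 173 normalized counts. The LPS-treated libraries did not come near the Control library, and WT PDZ+LPS was the lowest of them. The ratio in LPS/Control was 186-fold, but with 1 count in Control its interval ran from 32.9 to 7385. SELE, the other inducible endothelial adhesion gene, had 0 counts in Control, LPS and mut PDZ+LPS and 1 in WT PDZ+LPS. Counts of 0 in those libraries allow up to 3 counts each, or 2.61, 2.82 and 3.52 normalized counts. VCAM1 was thus plainly present in the LPS-treated libraries, and SELE was not detectable above the limit of these depths.

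CD274 was the third member past 2-fold. It had 64 counts in Control, 196 in LPS, 152 with the WT peptide and 128 with the mut peptide, or 55.7, 184, 153 and 150 normalized counts. The Control library was the lowest and LPS the highest. The ratio in LPS/Control was 3.31-fold (2.48 to 4.46). Its neighbour PDCD1LG2, the second ligand of PDCD1, begins 39976 bases further along chromosome 9 in RefSeq (GRCh38.p14) and had 1, 4, 4 and 2 counts in Control, in LPS and then with the WT and the mut peptide.

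CD44 and CD47 were higher after LPS by less than 2-fold in LPS/Control. CD44 had 536 counts in Control, 966 in LPS, 972 with the WT peptide and 767 with the mut peptide, or 466, 909, 982 and 901 normalized counts. The Control library was the low one and the other libraries lay close together. The ratios to Control were 1.95-fold (1.75 to 2.17) in LPS, 2.10-fold (1.89 to 2.34) in WT PDZ+LPS and 1.93-fold (1.73 to 2.16) in mut PDZ+LPS, so CD44 lay on either side of the 2-fold line with intervals that all include 2. CD47 had 1503, 2537, 2542 and 2329 normalized counts in the same order of libraries. Control was again the lowest, and the ratio in LPS/Control was 1.69-fold (1.59 to 1.79).

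ALCAM and CD58 differed little between Control and LPS. ALCAM had 7206 counts in Control, 7234 in LPS, 6686 with the WT peptide and 4212 with the mut peptide, or 6271, 6805, 6751 and 4949 normalized counts. The first 3 libraries were close and mut PDZ+LPS was the low one. In LPS/Control its log2 fold change was 0.12 (0.071 to 0.17), which became -0.014 when libraries were scaled by their totals. CD58 had 176, 217, 192 and 222 normalized counts in Control, in LPS and then with the WT and the mut peptide. Its log2 fold change in LPS/Control was 0.31 (0.027 to 0.59) on the ratio without a pseudocount, and no library stood apart.

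**Figure D1:**
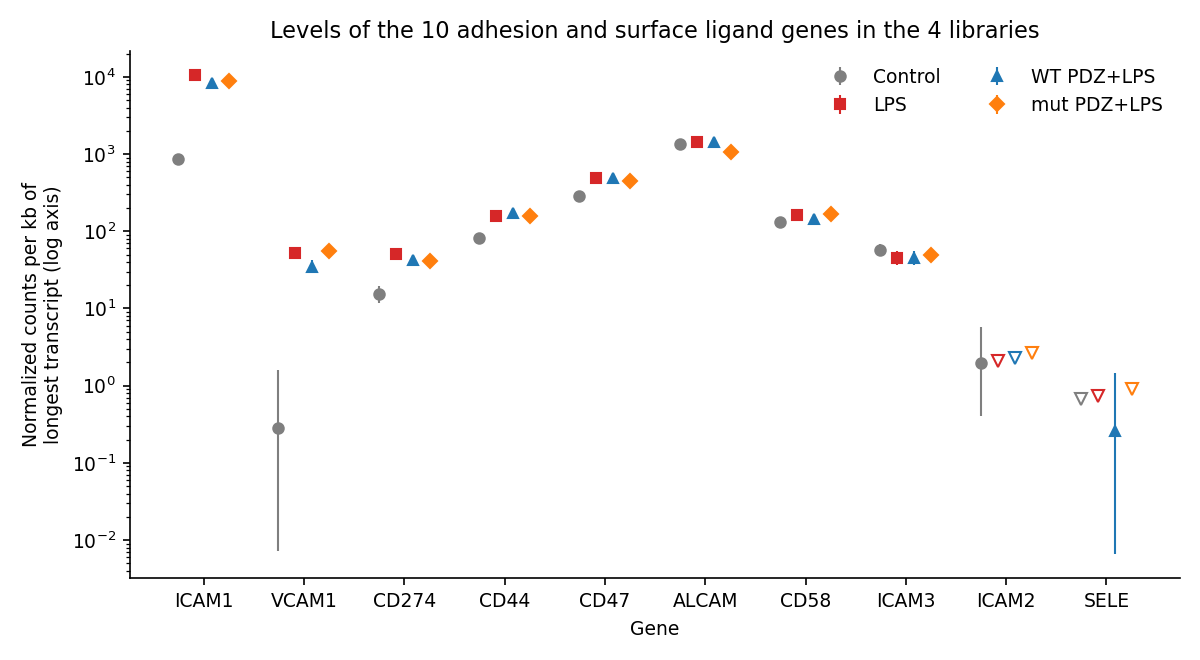
Normalized counts per kb of the longest transcript (log axis) for each of the 10 genes, with 1 point for each of the 4 libraries and bars for the exact 95% Poisson interval of its count. Open triangles stand for libraries with 0 counts and are drawn at 3 counts. ICAM1, VCAM1 and CD274 show the Control point well below the LPS-treated points, and ICAM2 and SELE lie at the bottom throughout.

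The order of levels per kb shifted with LPS at its head. In Control ALCAM led with 1334 normalized counts per kb, followed by ICAM1 with 871, CD47 with 288, CD58 with 132, CD44 with 81.4, ICAM3 with 57.2 and CD274 with 15.3. ICAM2, VCAM1 and SELE came last, with counting intervals that overlap. In LPS the leaders were ICAM1 with 10553, ALCAM with 1448 and CD47 with 486. CD58 (164) and CD44 (159) then did not differ beyond their counting intervals, nor did VCAM1 (52.5), CD274 (50.6) and ICAM3 (45.5). ICAM1, ALCAM and CD47 kept the first 3 places with either peptide on this length. The order depends on the transcript taken as the length. With the median length of a gene's protein-coding transcripts ICAM1 led in Control with 2187 per kb, before CD47 with 1962 and ALCAM with 1876. In LPS the same choice put CD47 (3312) before ALCAM (2036), CD44 (1253) well before CD58 (218) and ICAM3 (140) before VCAM1 (61.1), with ICAM1 still first.

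The list as a whole was read by a call of at least 2-fold between normalized counts with 1 added, where a library of the pair had a log2 value of at least 4. In LPS/Control 3 of the 10 genes were higher by this rule (ICAM1, VCAM1 and CD274) and 0 were lower, where 3.46% of 13277 genes passing the same level were higher and 1.41% were lower. Of the members, 8 passed the level. VCAM1 was in place 11 from the top of those genes, ICAM1 in place 57 and CD274 in place 222. The median log2 fold change of the 8 was 0.86, against -0.0010 over all genes whose mean normalized count reached 16. Because the members were chosen with earlier results of these data known, their calls and medians beside all genes describe the list and are no test of it. CD44 (0.96) and CD47 (0.75) lay above 96.3% and 94.9% of genes without passing 2-fold.

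Against Control, both peptide libraries carried the same leading genes at values of their own. In WT PDZ+LPS/Control 4 members were called higher, with CD44 joining ICAM1, VCAM1 and CD274, and 0 lower, beside 3.28% and 1.42% of 13284 genes. ICAM1 was 9.64-fold (9.29 to 9.996), VCAM1 123-fold (21.6 to 4903) and CD274 2.76-fold (2.04 to 3.75) above Control. In mut PDZ+LPS/Control ICAM1, VCAM1 and CD274 were called higher and 0 members lower, beside 5.13% and 2.96% of 13434 genes. There ICAM1 was 10.1-fold (9.71 to 10.5), VCAM1 198-fold (35.1 to 7891) and CD274 2.70-fold (1.99 to 3.70) above Control. After removal of the trend their log2 fold changes were 3.30, 6.62 and 1.56, beside 3.33, 6.54 and 1.42 as counted. These log2 values were taken with 1 added to the normalized counts, and the folds and intervals without it. The 198-fold of VCAM1 is therefore 7.63 on the log2 scale, and not 6.54. The median of the 8 members was 0.91 with the WT peptide and 0.79 with the mut peptide, against 0.010 and -0.018 over all genes. After removal of the trend the medians were 0.89 and 1.06, so the order of the peptide libraries turned. With totals as the scale CD44 dropped under 2-fold in WT PDZ+LPS/Control, leaving 3 called, and with the length and GC trend removed it reached 1.26 on the log2 scale in mut PDZ+LPS/Control, making 4. For CD47, CD58, ALCAM and ICAM3 the log2 fold changes in mut PDZ+LPS/Control were 0.63, 0.34, -0.34 and -0.21 as counted and 0.86, 0.13, -0.12 and -0.50 after removal. These comparisons share the Control library, whose single VCAM1 count sets the width of all 3 VCAM1 intervals.

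**Figure D2:**
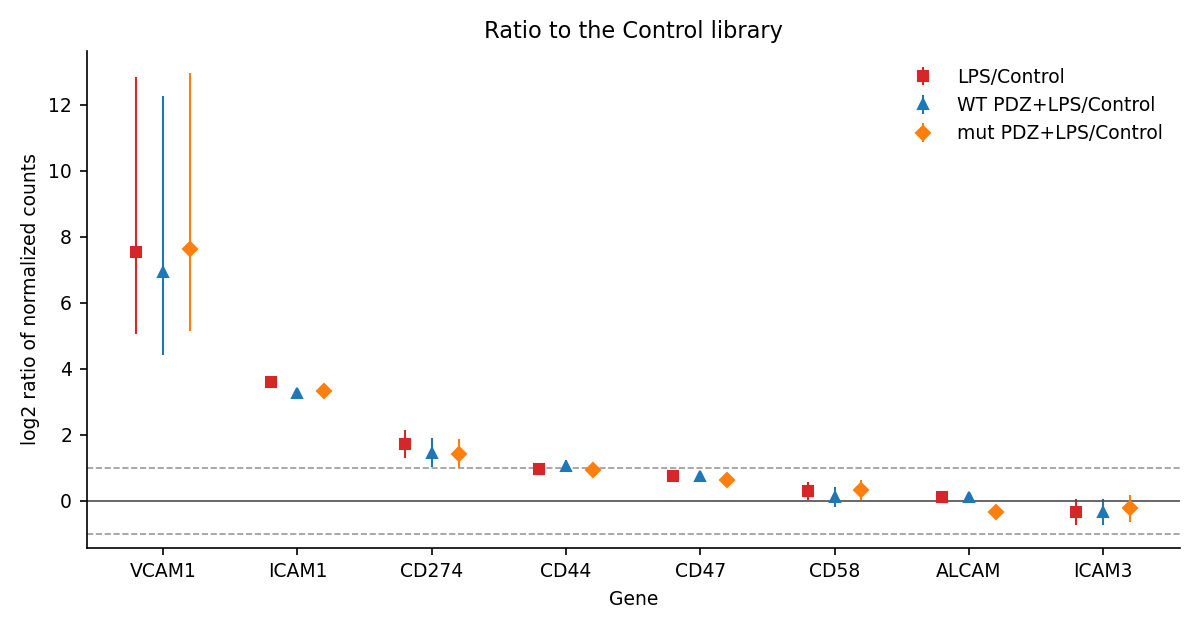
The log2 ratio of normalized counts of each LPS-treated library to Control for the 8 genes whose mean normalized count reached 16, with bars for the 95% counting interval and dashed lines at 2-fold. VCAM1 and ICAM1 are far above the upper line in all 3 libraries, CD44 sits on it, and ALCAM and ICAM3 lie near 0.

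WT PDZ+LPS/LPS sets the library with the wild-type peptide beside LPS. ICAM1, VCAM1 and CD274 were called in LPS/Control on this same single LPS library. A lower value of these genes in another library may in part reflect that choice. No member was called: 0 of 10 were higher and 0 lower, where 0.635% and 0.733% of 13236 genes were. ICAM1 and VCAM1 were nevertheless both below LPS, with counting intervals that lay wholly under the LPS level. VCAM1 was at 0.662 of its LPS level (0.514 to 0.848), a log2 fold change of -0.59, and 2.11% of genes lay lower. ICAM1 was at 0.796 (0.783 to 0.808), a log2 fold change of -0.33, and 5.65% of genes lay lower. CD274 was at -0.26 on the log2 scale (-0.58 to 0.048) and CD58 at -0.18 (-0.46 to 0.10), with intervals that include 0. CD44 was at 0.11 (-0.019 to 0.24), CD47 at 0.0026, ALCAM at -0.011 and ICAM3 at -0.0046. The median of the 8 members was -0.095, against 0.0075 over all genes. How far ICAM1 and VCAM1 vary between cultures given the same treatment was not measured, so the differences cannot be set against replicate spread.

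In mut PDZ+LPS/LPS 0 members were called in either direction, where 2.05% of 13378 genes were higher and 1.9% lower. ICAM1 was at -0.27 (-0.29 to -0.24), with 28.3% of genes lower as counted, and at -0.32 after the length and GC trend was removed. The same removal gave -0.31 for ICAM1 in WT PDZ+LPS/LPS. The 28.3% was taken among values that hold the length trend, so it is not comparable with the 5.65% of WT PDZ+LPS/LPS. VCAM1 was at 0.094 (-0.23 to 0.42) in mut PDZ+LPS/LPS, or 0.14 after removal. CD274 was at -0.29 (-0.63 to 0.035), or -0.17. Both peptide comparisons share the single LPS library, on which ICAM1, VCAM1 and CD274 were called in LPS/Control. ICAM1 was below it in each, while VCAM1 was below it in WT PDZ+LPS and had an interval including 0 in mut PDZ+LPS. ALCAM was the lowest member as counted, at -0.46 (-0.51 to -0.40), but at -0.24 after removal it lay above ICAM1 and CD58. CD47 was at -0.12 (-0.21 to -0.039) and turned to 0.10. CD44, whose longest transcript is 5732 nt, was at -0.012 and moved to 0.31. The shortest genes moved the other way, with CD58 going from 0.031 to -0.26 and ICAM3 from 0.11 to -0.24. The median of the 8 members was -0.068 as counted and -0.20 after removal, against -0.023 and -0.044 over all genes.

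**Figure D3:**
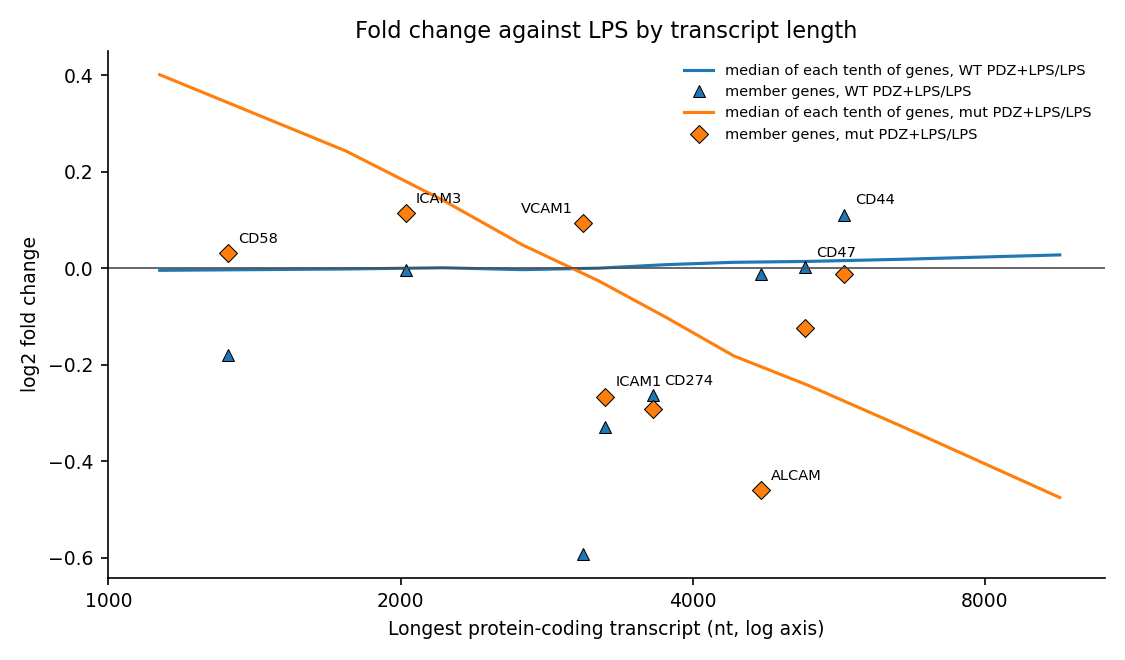
The log2 fold change of each peptide library over LPS against the longest transcript (log axis), as lines through the medians of 10 equal groups of genes and as points for the 8 members. The mut PDZ+LPS/LPS line descends from 0.40 to -0.47 while that of WT PDZ+LPS/LPS stays near 0, and ALCAM, CD47 and CD44 lie at the long end.

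The peptides differ by the glycine to alanine exchange, and the libraries are set beside each other in mut PDZ+LPS/WT PDZ+LPS. Again 0 members were called higher or lower, beside 2.12% and 2.14% of 13372 genes. VCAM1 was 1.61-fold higher with the mutant peptide (1.25 to 2.09), a log2 fold change of 0.69 that was 0.74 after removal of the trend. As counted, VCAM1 lay above 94.1% of genes. ICAM1 was at 0.064 (0.039 to 0.089), and at -0.0074 after removal. The ICAM1 value was 0.098 under total-count scaling and 0.13 under upper-quartile scaling. For ICAM1, then, the peptide libraries were close, with a size that depends on the scaling and a sign that depends on the correction. CD274 was at -0.029 (-0.38 to 0.32), an interval that holds a ratio of 0.768 as well as one of 1.25. ALCAM was at -0.45 (-0.50 to -0.39) and at -0.21 after removal, and CD274, CD44, CD47, CD58 and ICAM3 changed sign with the removal. The median of the 8 was 0.017 against -0.020 over all genes, and 0.048 against -0.046 after removal.

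**Figure D4:**
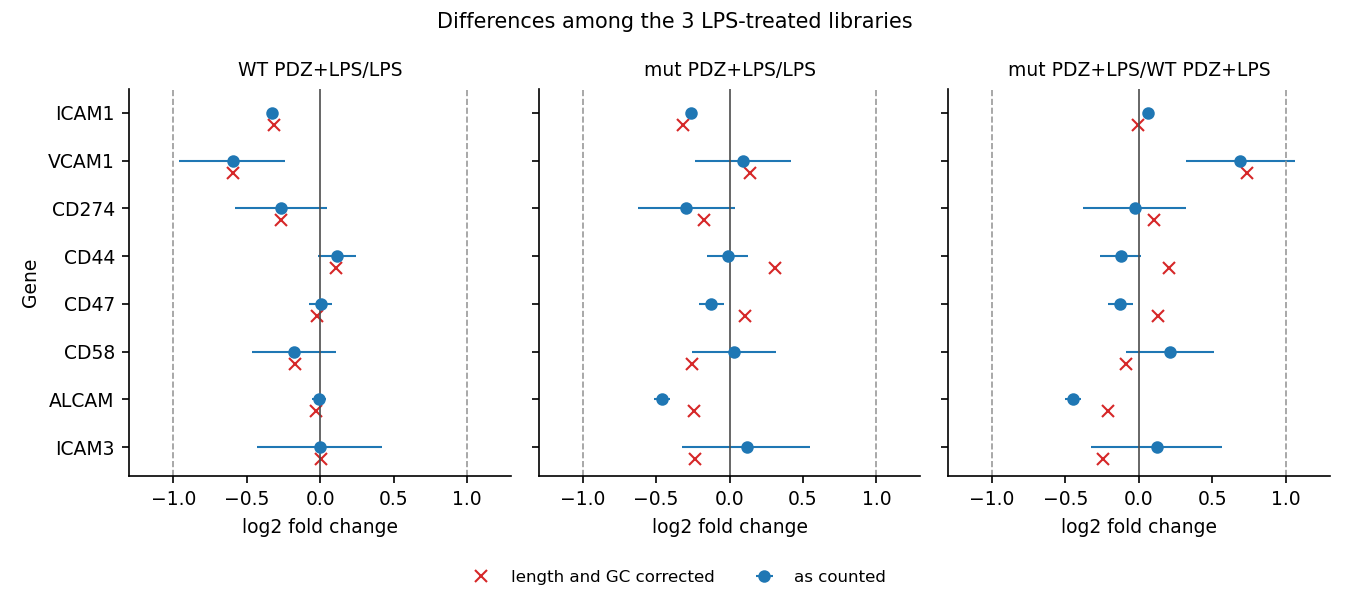
The log2 fold changes among the 3 LPS-treated libraries for the 8 members, as counted (circles, with bars for the 95% counting interval) and after removal of the length and GC trend (crosses), with dashed lines at 2-fold. No circle reaches a dashed line, VCAM1 is the gene farthest from 0 in the first and last panels, and the crosses depart from the circles where mut PDZ+LPS is involved.

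The genes whose course over the 4 libraries was most like that of ICAM1, VCAM1 and CD274 were found by Euclidean distance between log2 values centred on their mean, among 13064 other genes. Nearest to ICAM1 was AMIGO2 at a distance of 0.064, with 40 counts in Control, 461 in LPS, 354 with the WT peptide and 299 with the mut peptide. TNFRSF9 (0.15) and BIRC3 (0.19) followed. Nearest to VCAM1 was CCL2, the monocyte chemokine, at 0.16, with 99, 7096, 4426 and 6720 counts. Its WT PDZ+LPS library was the lowest of the LPS-treated libraries, which is part of the likeness it was picked for. KRT6B (0.31) and TNFAIP6 (0.46) followed. Close to CD274 were SMAD3 (0.11) and SPSB1 (0.12). Each likeness rests on 4 values, and genes picked for a like course are no separate evidence for that course. The distances to VCAM1 also depend on its 1 count in Control and on the pseudocount of 1. With a pseudocount of 5 its log2 fold change in LPS/Control was 4.83 instead of 6.44.

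Related molecules were counted in the same way in LPS/Control. Of 32 other adhesion molecules, 1 was higher and 0 lower, and this was ICAM4, the red cell member of the ICAM family, at 5 counts in Control and 43 in LPS (9.30-fold, 3.69 to 30.1). In RefSeq (GRCh38.p14) ICAM4 begins 339 bases after the end of ICAM1 on chromosome 19. It had 28 counts with the WT peptide and 56 with the mut peptide, where ICAM1 was about level, and was called higher in mut PDZ+LPS/WT PDZ+LPS at 1.19 on the log2 scale, or 0.70 after removal of the trend. Whether reads running past the end of ICAM1 entered the ICAM4 count was not tested. ICAM5, the next gene along, had 131, 137, 165 and 136 counts and was at 0.18 (-0.18 to 0.53).

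Of 34 other immune surface ligands, 3 were higher and 0 lower. ICOSLG, which costimulates T cells through ICOS, had 80 counts in Control and 624 in LPS, a log2 fold change of 3.06. TNFSF14, a ligand of the TNF family, had 30 and 67 counts, a log2 fold change of 1.24. TNFSF15 went from 0 counts in Control to 47 in LPS, which is at least 16.9-fold higher with the 0 taken as 3 counts. The restraining CD274 and the costimulating ICOSLG were thus both higher in the LPS library, which does not extend to all ligands of the list. C10orf54 was at -0.35 (-0.46 to -0.24), TNFSF9 was at -0.30 (-0.87 to 0.24), and CD80 and CD86 had 0 counts in Control and in LPS. Among genes of this list that passed the level the lowest value was that of ULBP1, a ligand of the natural killer cell receptor NKG2D, at -0.93 (-1.62 to -0.32).

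Of 18 genes listed as counter-receptors or other partners of these ligands, 4 reached a mean normalized count of 16 (THBS1, ITGB1, SIRPA and ITGB2). THBS1 and ITGB1 were abundant, with 20734 and 18030 normalized counts in Control. ITGAD, CD2, CD6, SIRPG and PDCD1 were at 0 in all 4 libraries. SIRPA, the receptor of CD47, was the 1 called gene, with 645 counts in Control and 1455 in LPS (1.28 on the log2 scale). ITGA4, the VCAM1 receptor subunit, had 7, 5, 11 and 6 counts. Of 21 genes of hyaluronan turnover and CD44 partners, 1 was higher and 0 lower. This was TNFAIP6, which modifies hyaluronan, with 89 counts in Control, 6299 in LPS, 5832 with the WT peptide and 5561 with the mut peptide, a log2 fold change of 6.24 in LPS/Control. HAS2, a hyaluronan synthase, had 107 counts in Control and 126 in LPS and was not called. Among genes of the adhesion and hyaluronan lists that passed the level the lowest values were those of HYAL1 (-0.98), JAM3 (-0.60) and VCAN (-0.48). Of the listed genes that passed the level, those called higher were 1 of 19 (5.26%) for adhesion molecules, 3 of 23 (13.0%) for immune ligands, 1 of 4 (25.0%) for counter-receptors and 1 of 17 (5.88%) for the hyaluronan list, beside 3.46% of all genes that passed it. These lists too were chosen with earlier results of these data known.

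**Figure D5:**
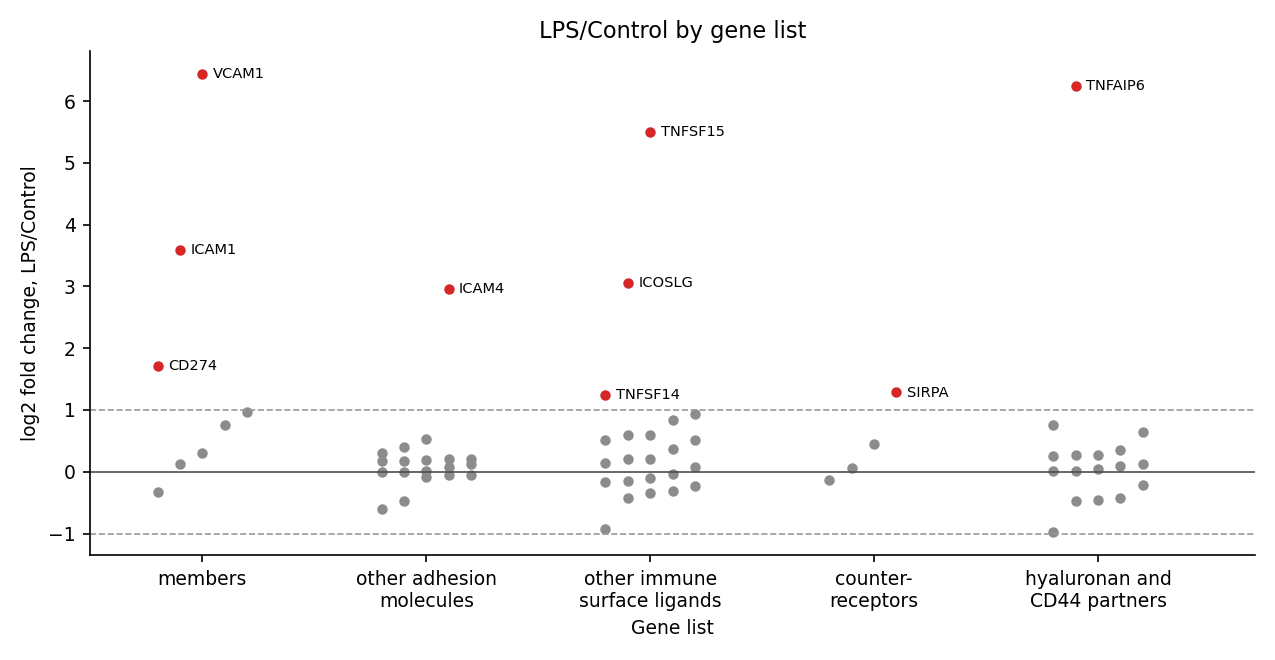
The log2 fold change in LPS/Control (vertical axis) of each gene that passed the level in the list of members and in 4 related lists, with called genes in red and named and dashed lines at 2-fold. The heights of VCAM1 and TNFSF15, with 1 and 0 counts in Control, depend on the pseudocount of 1, and each related list holds 1 to 3 called genes.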

How the data were processed

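BEAS-2B cells were sequenced in 4 libraries, 1 per condition, grouped by their labels. The authors prepared poly(A) RNA with a directional kit, trimmed reads and mapped them with TopHat to hg19, according to their methods and the submitters' processing notes. The authors deposited whole-number read counts per gene symbol. Their methods name FPKM and edgeR, but the deposited values are raw counts. The counting tool, the annotation and the use of strand are not given in the sources used here, so reads of overlapping or antisense genes cannot be told apart. The deepest library was LPS with 25155647 counts, before Control with 24823347, WT PDZ+LPS with 23446600 and last mut PDZ+LPS with 19682929.

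Counts were divided by geometric size factors (DESeq2 1.42.0, R 4.3.3). A gene was called at a fold of at least 2 between normalized counts plus 1, with a log2 value of at least 4 in at least 1 library of the pair. The study names these thresholds for its own normalized data. Intervals are exact binomial at 95% and were computed on the ratio without the pseudocount (scipy 1.17.1). Folds in the text are that ratio too, whereas log2 fold changes in the text carry the pseudocount of 1 unless stated otherwise. The 2 forms part where a count is small, as for VCAM1 and ICAM4 in Control. Lengths and GC content came from the longest protein-coding transcript in the reference (12118 of 13072 genes, 92.7%), and lowess trends (span 0.3) were removed as an alternative. Further alternatives were a pseudocount of 5, scaling by upper quartile, by totals or by TMM (edgeR 4.0.16), no level rule or a rule of 6, and folds of 1.5 and 3. The scripts were tested on simulated data. Named genes were all members, the 3 nearest profiles of each member called in LPS/Control, neighbouring genes, and the 4 highest and 4 lowest of the related lists in LPS/Control. SIRPA, TNFSF14, HAS2, ITGA4, ITGB1, THBS1 and the genes of the closing observations were named after their values were seen. Some genes under these rules are not reported here. The members and lists were chosen with earlier results of these data known.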

Additional observations from a re-analysis of the deposited data

How the results depend on the processing

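No paired analysis was possible because each condition had 1 library. Calls of members depended chiefly on the fold. At 1.5-fold 5 members were called in mut PDZ+LPS/Control and 5 in LPS/Control (CD44 and CD47 added), and VCAM1 was the 1 called in WT PDZ+LPS/LPS and the 1 called in mut PDZ+LPS/WT PDZ+LPS. At 3-fold 2 were called in WT PDZ+LPS/Control (CD44 and CD274 lost) and 2 in mut PDZ+LPS/Control (CD274 lost). Without the level rule 1 member, SELE on a single count, was called in WT PDZ+LPS/LPS, and likewise 1 in mut PDZ+LPS/WT PDZ+LPS. ICAM2 (3 counts to 0) was then called lower than in Control in all 3 libraries and SELE higher with the WT peptide, giving 4 calls for LPS, 6 for the WT peptide and 4 for the mut peptide. Of 48 log2 fold changes of members, 48 stayed within counting error under TMM, 40 under upper-quartile scaling, 37 under total-count scaling and 35 after removal of the length and GC trend, where 12 changed sign. No member changed sign in a comparison in which it was called. Total-count scaling shifted the median log2 fold change of all genes over Control by -0.13 for LPS, by -0.13 for the WT peptide and by -0.098 for the mut peptide. With a pseudocount of 5 the largest move was 1.62, for VCAM1 against Control. With the median transcript length 5, 3, 8 and 4 of the 10 genes kept their place in the order of levels in Control, in LPS and then with the WT and the mut peptide. Without replicates, no spread between cultures is known.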

Other observations

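Some related surface genes passed the call between a peptide library and LPS. In WT PDZ+LPS/LPS 1 of 19 other adhesion molecules passing the level was lower and 0 higher, beside 0.733% and 0.635% of all genes. In mut PDZ+LPS/LPS 2 of 20 were higher and 2 lower, beside 2.05% and 1.9% of all genes. There 1 of 23 other immune surface ligands was lower and 0 higher. With only 8 members passing the level, their lack of calls is no contrast to these lists. EMB, a relative of the immunoglobulin-type protein basigin, had 38 counts in Control, 51 in LPS, 18 with the WT peptide and 12 with the mut peptide, and was called lower in both peptide libraries against LPS, at -1.35 (-2.26 to -0.60) and -1.70 (-2.81 to -0.84, or -1.55 after the length and GC trend was removed) on the log2 scale. CEACAM1 had 32, 21, 12 and 7 counts in the same order and was called lower with the mut peptide than in LPS, at -1.17 as counted and -1.06 after removal, with a counting interval of -2.74 to 0.024 that includes 0. NCR3LG1, a ligand of a natural killer cell receptor, had 1411, 1980, 1975 and 729 counts, and its -1.12 (-1.25 to -0.997) in mut PDZ+LPS/LPS became -0.76 after removal, under 2-fold. L1CAM, with 13, 13, 12 and 23 counts, and JAM3, with 68, 41, 47 and 67, were called higher in mut PDZ+LPS/LPS at 1.08 (0.10 to 2.25) and 1.01 (0.45 to 1.63, or 1.16 after removal). TNFSF14 had its lowest count in Control and its highest in mut PDZ+LPS, with 30, 67, 86 and 103 counts. These genes were picked from the related lists because they passed the call or for their course, most have few counts, and their values have no replicate check.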
